A study of Mus musculus with 8 samples.

Results

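The gene set analysed here holds 10 genes of adipogenesis and lipid handling. They are the transcription factors *Zfp423*, *Cebpb*, *Cebpd*, *Cebpa* and *Pparg*, the lipid enzymes and carriers *Lpl*, *Fabp4* and *Pltp*, and the secreted fat cell proteins *Adipoq* and *Cfd*. The genes were chosen by symbol, each symbol matched a single identifier, and all 10 of the 15880 genes in the table were tested without a filter on low values. Stromal cells were sorted from newborn mice heterozygous for *Nes-Gfp* on a C57BL/6 background, a transgene that places GFP under nestin regulatory sequence. After removal of hematopoietic (CD45), endothelial (CD31) and erythroid (Ter119) cells by surface staining, the remainder was divided by GFP and by surface Pdgfrα into GFP+ Pdgfrα+, GFP- Pdgfrα+, GFP+ Pdgfrα- and GFP- Pdgfrα- cells. All 4 populations share the strain, the transgene, the age (postnatal day 1) and the collagenase digestion of crushed bones, and no treatment was given. Each population has 2 libraries. Each library comes from the bones of 3 pooled pups and 15000 to 80000 sorted cells, so that a value is a mean over animals, bones and cells. By the design text, libraries with the same replicate number share a pool of littermates. The main fit leaves this pairing out, and a replicate block is given as an alternative. RNA was amplified to cDNA before sequencing.

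Adipogenesis is a cascade of transcription factors. Zfp423 marks cells committed to the fat lineage, C/EBPβ and C/EBPδ act early, and they induce C/EBPα and PPARγ, which maintain each other and switch on the genes of the mature fat cell. Pdgfrα is a common surface marker of fat progenitors in several tissues, and stromal cells of the postnatal marrow can give rise to marrow fat, which is scarce in the newborn.

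The table gives a normalized value per gene and library, equal to the reads of the gene plus 0.5, per 1000000 of an effective library size. Whole reads were recovered from 100% of the values and summed to between 3221217 and 5302762 per library. A gene with 3 reads, taken as the floor, has a value between 0.825 and 1.04. *Cebpb* and *Cfd* lie close to this floor. *Cebpb* had between 2 and 16 reads per library, and *Cfd* between 2 and 28. In GFP- Pdgfrα- cells other members were also near the floor. Replicates 1 and 2 there had 7 and 3 reads of *Pparg*, 2 and 3 of *Cebpa* and 3 and 4 of *Cebpd*. They had 2 and 6 reads of *Zfp423* and 6 and 5 of *Pltp*. Amplified reads are not independent molecules, so floors and intervals from reads speak for counting error alone. Populations were compared with limma on log2(value + 1), a scale on which changes at low values come out too small, and a gene was called at a Benjamini–Hochberg adjusted p of at most 0.05 over all 15880 genes. An exact permutation test of 2 libraries against 2 cannot give a p below 0.333, so the adjusted p-values draw on limma's pooling of variance over genes. Full separation of 2 libraries from 2 has that same probability by chance. Statements on overlap below therefore only describe the values, and the share of all genes without overlap is not given.

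The sort was checked on its own marker and on markers of other cell types. *Pdgfra* had values of 733 and 754 in GFP+ Pdgfrα+ cells and of 839 and 794 in GFP- Pdgfrα+ cells, against 18.1 and 10.4 in GFP+ Pdgfrα- and 3.30 and 4.36 in GFP- Pdgfrα- cells. *Nes* had values of 149 and 176 in GFP+ Pdgfrα- and of 57.6 and 72.0 in GFP+ Pdgfrα+ cells. In GFP- Pdgfrα+ cells it reached 27.4 and 47.1, and the difference between these Pdgfrα+ populations did not pass the test (log2 fold change 0.82, standard error 0.34, limma adjusted p = 0.213).

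Both Pdgfrα- populations hold transcripts that their labels do not name, as sums over marker lists show (the gene named for a list has its highest mean over the 8 libraries). The GFP- Pdgfrα- libraries, although depleted of Ter119+ cells, had summed values of 13873 and 21935 over the 9 erythroid genes found of 10 listed, against 39.9 to 172 in the other 6 libraries. The beta-globin gene *Hbb-b1* led the list, at 4362 and 7619. Over 11 myeloid genes found of 12, led by *Lyz2*, the sum was 124 and 120 in GFP- Pdgfrα- cells and 7.04 to 40.0 elsewhere.

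The GFP+ Pdgfrα- libraries were the highest in 3 other lists. All 10 skeletal muscle genes, led by *Actc1*, summed to 1876 and 1726 there, against 22.2 to 130 in the other libraries. All 9 pericyte and smooth muscle genes, led by *Rgs5*, summed to 2449 and 3162, against 91.5 to 599. The 8 Schwann cell genes, led by *Ngfr*, summed to 472 and 430, against 26.1 to 200, while *Ngfr* itself was 33.6 and 23.3 there and higher in the Pdgfrα+ libraries, at 49.5 to 109. The muscle regulators *Myod1* and *Myf5* were at or under the floor in both GFP- populations, and *Sox10*, which marks Schwann cells, was so in GFP- Pdgfrα+ cells.

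The 8 genes of the bone list, led by *Col1a1*, summed to 60977 and 44795 in GFP+ Pdgfrα+ cells, of which *Col1a1* made up 51185 and 38311. They summed to 17320 and 15680 in GFP- Pdgfrα+ cells, of which *Col1a1* alone made up 16841 and 15352. The sums were 3872 and 3202 in GFP+ Pdgfrα- and 551 and 673 in GFP- Pdgfrα- cells. The 7 cartilage genes, led by *Col2a1*, differed between libraries of a population, with 678 and 2128 in GFP- Pdgfrα+ cells. The 11 endothelial genes found of 12, led by *Tek*, summed to 44.1 and 153 in GFP- Pdgfrα-, 62.0 and 136 in GFP+ Pdgfrα-, 56.9 and 63.1 in GFP- Pdgfrα+ and 74.7 and 92.7 in GFP+ Pdgfrα+ cells. *Tek* itself was lowest in GFP- Pdgfrα- cells, at 0.718 and 6.25, and ranged from 17.1 to 39.5 in the other libraries. In bulk samples, fewer cells of a type and less RNA per cell cannot be told apart, which holds for every comparison between these populations.

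**Figure D1:**
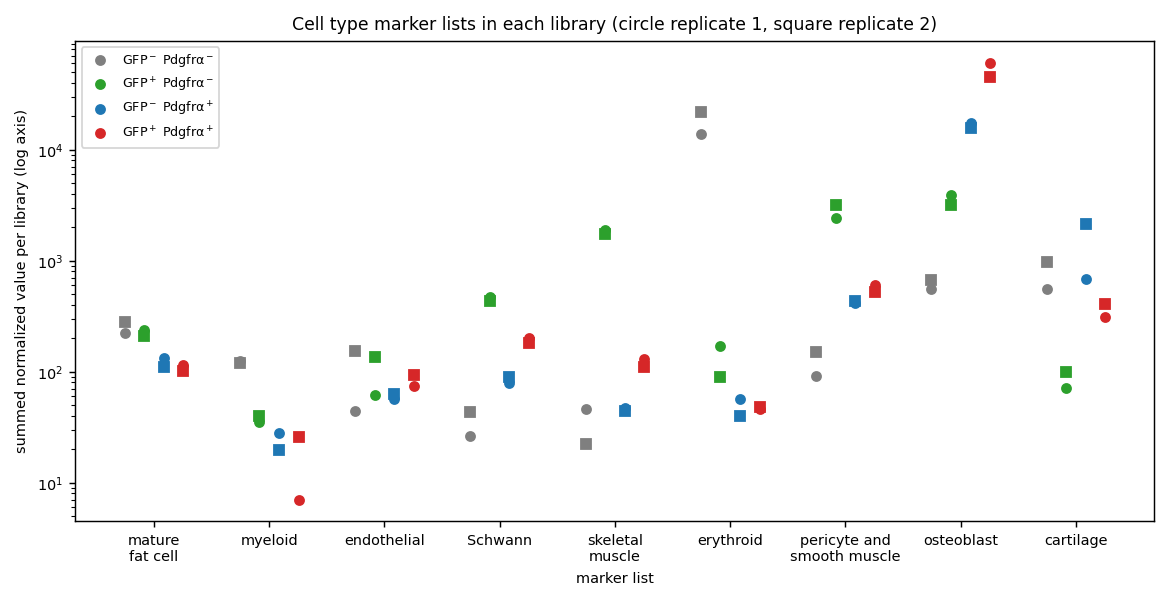
Summed normalized value of each marker list (log axis) in the 8 libraries, with colours for the populations, circles for replicate 1 and squares for replicate 2. The erythroid sums of the GFP- Pdgfrα- libraries, 13873 and 21935, lie above all others of that list, and the muscle sums of the GFP+ Pdgfrα- libraries, 1876 and 1726, above all others of theirs.

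The comparison by Pdgfrα asks which genes of the set go with the receptor at a fixed GFP state. Among GFP+ cells, 5 of the 10 genes were called. *Zfp423*, *Lpl* and *Pltp* were higher in Pdgfrα+ cells, and *Fabp4* and *Cfd* were lower. In GFP+ Pdgfrα- cells the muscle sums were 1876 and 1726, against 130 and 110 in GFP+ Pdgfrα+ cells. In the same order, pericyte and smooth muscle sums were 2449 and 3162 against 599 and 519. Schwann sums were 472 and 430 against 200 and 181, and bone sums 3872 and 3202 against 60977 and 44795. Reads on *mt-Rnr2* were 17.6% and 15.6% against 9.52% and 10.3%. The part of these transcripts in the calls was not tested. Over all genes 13.1% were called higher and 11.1% lower in this comparison, and the median log2 fold change was 0.52 for the 10 genes and -0.02 for all genes. The count fell to 3 without replicate 1 of GFP+ Pdgfrα- cells, when *Fabp4* and *Cfd* were no longer called, and it was 5 with the GFP- Pdgfrα- libraries left out of the fit.

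Among GFP- cells, 7 of the 10 genes were called between Pdgfrα+ and Pdgfrα- cells. *Zfp423*, *Lpl*, *Cebpa*, *Cebpd* and *Pparg* were higher in Pdgfrα+ cells, and *Fabp4* and *Cfd* were lower. This contrast separates GFP- Pdgfrα+ stroma from the libraries rich in erythroid transcripts, and 32.9% of all genes were called higher and 26.8% lower. In either direction 9476 of 15880 genes were called, and the count of 7 of the 10 genes lies near that share. The median log2 fold change was 1.54 for the 10 genes and 0.17 for all genes. With the replicate block, which takes the shared pool of pups into account, *Pltp* was called as well (log2 fold change 1.34, limma adjusted p = 0.0237; 0.00487 to 0.498 over the alternatives), which made 8 genes.

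The comparison by GFP at a fixed Pdgfrα state gave fewer calls among Pdgfrα+ cells. There, *Pltp* alone of the 10 genes was called, and it was higher in GFP+ cells. The bone sums were also higher in GFP+ cells, at 60977 and 44795 against 17320 and 15680. The part of bone transcripts in calls between these populations was not tested. Over all genes 3.22% were called higher and 2.13% lower. The median log2 fold change was 0.35 for the 10 genes and 0.00467 for all genes. At an unadjusted p of at most 0.05 limma counted 2 of the 10 genes, edgeR on the recovered reads called 1 gene after adjustment, and voom called 2, the added gene being *Zfp423* with a log2 fold change of -0.59.

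Among Pdgfrα- cells, 5 of the 10 genes were called, and all 5 were higher in GFP+ cells. They were *Zfp423*, *Cebpa*, *Cebpd*, *Pparg* and *Lpl*. Over all genes 30.1% were called higher and 23.6% lower, and the median log2 fold change was 0.88 for the 10 genes and 0.15 for all genes. In either direction 8527 of 15880 genes were called, and the count of 5 of the 10 genes lies near that share. The count was 3 without replicate 1 of GFP+ Pdgfrα- cells, when *Pparg* and *Cebpd* were no longer called. The GFP- Pdgfrα- libraries serve as the reference of both this comparison and that by Pdgfrα among GFP- cells, so these counts are not independent. The part of erythroid, myeloid and muscle transcripts in these differences was not tested.

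Each contrast against GFP- Pdgfrα- cells also depends on scaling. The median of all genes moved from 0.15 to -0.30 in the comparison by GFP and from 0.17 to -0.28 in that by Pdgfrα when each library was centred on its median. The called members kept their direction. Of the members that were not called, *Adipoq* in the first comparison and *Cebpb* in the second changed sign with centring. With quantile normalization, 4 of the 10 genes were called higher and 3 lower in Pdgfrα+ than in Pdgfrα- GFP- cells, where the values as deposited gave 5 and 2. Quantile normalization gave 4249 higher and 5086 lower calls over all genes in that comparison. Over all genes, centring gave 3913 higher and 5720 lower calls there, against 5226 and 4250, and 3550 higher and 5569 lower in the comparison by GFP, against 4787 and 3740.

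**Figure D2:**
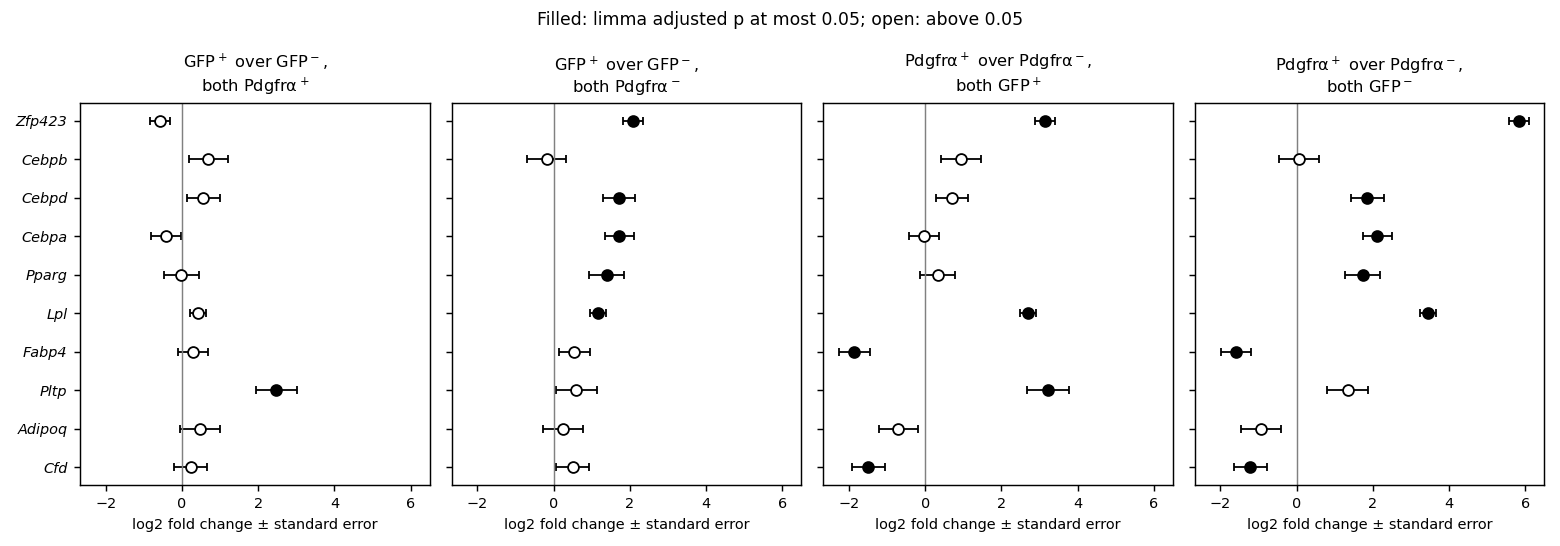
Log2 fold change on the log2(value + 1) scale (horizontal axis, with standard error) of the 10 genes in each of the 4 comparisons, filled where the limma adjusted p is at most 0.05. *Zfp423* and *Lpl* lie to the right in both comparisons by Pdgfrα, with log2 fold changes from 2.69 to 5.82, while *Fabp4* and *Cfd* lie to the left, from -1.85 to -1.21.

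*Zfp423* (ENSMUSG00000045333; NCBIM37 chromosome 8, 90185709 to 90483494, minus strand) encodes a zinc finger factor of early fat commitment. Its normalized values were 68.4 and 88.1 in GFP+ Pdgfrα+, 119 and 114 in GFP- Pdgfrα+, 7.65 and 8.10 in GFP+ Pdgfrα- and 0.718 and 1.53 in GFP- Pdgfrα- cells. The Pdgfrα+ libraries were all higher than the Pdgfrα- libraries, and no population overlapped another. Summed over both libraries, its reads were 553 in GFP+ Pdgfrα+, 857 in GFP- Pdgfrα+, 62 in GFP+ Pdgfrα- and 8 in GFP- Pdgfrα- cells. By Pdgfrα, the gene differed by a log2 fold change of 3.15 in GFP+ cells (standard error 0.26, limma adjusted p = 5.58e-06) and 5.82 in GFP- cells (limma adjusted p = 2.83e-09). By GFP it was 2.09 in Pdgfrα- cells (limma adjusted p = 2.90e-05) and -0.58 in Pdgfrα+ cells, which did not pass (limma adjusted p = 0.260). The call by Pdgfrα held in all 14 alternatives in GFP+ and all 13 in GFP- cells.

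The early factors *Cebpb* and *Cebpd* differed from each other in pattern. *Cebpb* (ENSMUSG00000056501; chromosome 2, 167514415 to 167515918, plus strand) had values of 4.56 and 1.58 in GFP+ Pdgfrα+, 2.14 and 0.743 in GFP- Pdgfrα+, 0.607 and 1.41 in GFP+ Pdgfrα- and 2.15 and 0.590 in GFP- Pdgfrα- cells. The replicates of a population differed by more than most populations did, and only GFP+ Pdgfrα+ and GFP+ Pdgfrα- cells did not overlap. No comparison passed the test (limma adjusted p from 0.218 to 0.929), which with 2 libraries per population does not show that levels were equal. Its exons overlap those of *Tmem189* on the opposite strand, and reads of the pair cannot be told apart where the strand was not kept.

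*Cebpd* (ENSMUSG00000071637; chromosome 16, 15887379 to 15888559, plus strand), which the annotation of this build types as a pseudogene, had values of 9.80 and 9.92 in GFP+ Pdgfrα+ cells. They were 8.19 and 4.90 in GFP- Pdgfrα+, 8.38 and 3.73 in GFP+ Pdgfrα- and 1.01 and 1.06 in GFP- Pdgfrα- cells. The GFP- Pdgfrα- libraries lay below all others, with 3 and 4 reads, and the middle populations overlapped. Against GFP- Pdgfrα- cells, the log2 fold change was 1.86 for GFP- Pdgfrα+ (standard error 0.43, limma adjusted p = 0.00245) and 1.71 for GFP+ Pdgfrα- cells (limma adjusted p = 0.00475). The second call was lost without replicate 1 of GFP+ Pdgfrα- cells, at 1.22 (limma adjusted p = 0.0647; 0.00308 to 0.0682 over the alternatives), and with quantile normalization, at 1.03.

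*Cebpa* (ENSMUSG00000034957; a single exon on chromosome 7, 35904312 to 35906945, plus strand) encodes the C/EBP factor of terminal differentiation, which is also a regulator of myeloid cells. Values were 6.21 and 3.59 in GFP+ Pdgfrα+, 6.68 and 6.68 in GFP- Pdgfrα+, 4.49 and 5.27 in GFP+ Pdgfrα- and 0.718 and 0.825 in GFP- Pdgfrα- cells. The GFP- Pdgfrα- libraries were at the floor, with 2 and 3 reads, and all others were higher. By reads, GFP- Pdgfrα+ cells were 10.1-fold above GFP- Pdgfrα- cells (95% exact binomial interval 4.04 to 32.5), and GFP+ Pdgfrα- cells were 7.33-fold above them (2.88 to 23.9). The corresponding log2 fold changes were 2.12 (standard error 0.39, limma adjusted p = 0.000479) and 1.73 (limma adjusted p = 0.00239), and both calls held in all 13 alternatives. The myeloid sums given above were 124 and 120 in GFP- Pdgfrα- cells and 7.04 to 40.0 elsewhere, and the part of myeloid transcripts in this difference was not tested.

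*Pparg* (ENSMUSG00000000440; chromosome 6, 115311239 to 115440419, plus strand) encodes the nuclear receptor without which fat cells do not form. Values were 7.32 and 6.47 in GFP+ Pdgfrα+, 5.92 and 8.17 in GFP- Pdgfrα+, 8.38 and 3.22 in GFP+ Pdgfrα- and 2.15 and 0.825 in GFP- Pdgfrα- cells. The first 3 of these populations overlapped, and the GFP- Pdgfrα- libraries were the lowest, with 7 and 3 reads. The log2 fold change against GFP- Pdgfrα- cells was 1.73 for GFP- Pdgfrα+ (standard error 0.46, limma adjusted p = 0.00651) and 1.39 for GFP+ Pdgfrα- cells (limma adjusted p = 0.0240).

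These *Pparg* calls rested on single libraries. Without replicate 2 of GFP- Pdgfrα- cells they fell to 1.34 (limma adjusted p = 0.0594) and 1.00 (limma adjusted p = 0.163). Without replicate 2 of GFP- Pdgfrα+ cells the first was 1.53 (limma adjusted p = 0.0552), and without replicate 1 of GFP+ Pdgfrα- cells the second was 0.81 (limma adjusted p = 0.232). Over all alternatives the adjusted p ranged from 0.00517 to 0.0811 for the first and from 0.0117 to 0.266 for the second. Library medians centred gave 0.94 and quantile normalization 0.68 for the second, and quantile normalization 1.06 for the first, none of them called. The second was not called either in a fit of the compared populations alone (limma adjusted p = 0.0618).

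*Lpl* (ENSMUSG00000015568; chromosome 8, 71404390 to 71431347, plus strand) encodes lipoprotein lipase, which releases fatty acids from circulating triglyceride. Per kilobase of exon it was the most abundant of the 10 genes in both Pdgfrα+ populations, at 69.9 and 52.6, and it lay below *Fabp4* in both Pdgfrα- populations. Normalized values were 453 and 499 in GFP+ Pdgfrα+, 310 and 407 in GFP- Pdgfrα+, 77.1 and 68.6 in GFP+ Pdgfrα- and 40.1 and 25.1 in GFP- Pdgfrα- cells. No population overlapped another. The log2 fold change by Pdgfrα was 2.69 in GFP+ cells (standard error 0.20, limma adjusted p = 2.89e-06) and 3.44 in GFP- cells (limma adjusted p = 2.91e-08). By GFP its mean rose 2.23-fold in Pdgfrα- cells (limma adjusted p = 0.000401). Between the Pdgfrα+ populations its log2 fold change was 0.42, which did not pass (limma adjusted p = 0.305). All 3 calls held in all alternatives run for them.

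*Fabp4* (ENSMUSG00000062515; chromosome 3, 10204347 to 10208576, minus strand) encodes the fatty acid carrier of fat cells, which is also made by capillary endothelium and macrophages. Its values were 7.60 and 7.04 in GFP+ Pdgfrα+, 3.91 and 8.46 in GFP- Pdgfrα+, 31.4 and 26.9 in GFP+ Pdgfrα- and 13.1 and 29.1 in GFP- Pdgfrα- cells. All Pdgfrα- libraries were higher than all Pdgfrα+ libraries, while the populations of the same Pdgfrα state overlapped. By Pdgfrα the log2 fold change was -1.85 in GFP+ (standard error 0.40, limma adjusted p = 0.00543) and -1.59 in GFP- cells (limma adjusted p = 0.00445). The first call was lost without replicate 1 of GFP+ Pdgfrα- cells, at -1.75 (limma adjusted p = 0.0686; 0.00184 to 0.0686 over the alternatives). The second was lost without replicate 2 of GFP- Pdgfrα- cells, at -1.05 (limma adjusted p = 0.0616), and without replicate 1 of GFP- Pdgfrα+ cells, at -1.12 (limma adjusted p = 0.0585; 0.000517 to 0.0616 over the alternatives). The part of endothelial and myeloid transcripts in this difference was not tested. The summed endothelial values above were 44.1 and 153 in GFP- Pdgfrα- cells, where *Fabp4* was 13.1 and 29.1, and 62.0 and 136 in GFP+ Pdgfrα- cells, where *Fabp4* was 31.4 and 26.9. The myeloid sums of these populations were 124 and 120, and 35.3 and 40.0.

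*Pltp* (ENSMUSG00000017754; chromosome 2, 164665018 to 164683211, minus strand) encodes the phospholipid transfer protein of plasma lipoproteins. Values were 50.7 and 24.3 in GFP+ Pdgfrα+, 10.97 and 2.52 in GFP- Pdgfrα+, 2.79 and 2.96 in GFP+ Pdgfrα- and 1.87 and 1.30 in GFP- Pdgfrα- cells. GFP+ Pdgfrα+ libraries were above all others, and the replicates of each Pdgfrα+ population lay far apart. Against GFP+ Pdgfrα- cells, the former were higher by 3.22 on the log2 scale (standard error 0.54, limma adjusted p = 0.00109), a call that held in all 14 alternatives.

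Between the Pdgfrα+ populations *Pltp* differed by 2.48 on the log2 scale (limma adjusted p = 0.0207), and this call depended on the setting. It was lost without replicate 2 of GFP- Pdgfrα+ cells, at 1.60 (limma adjusted p = 0.181), and without replicate 1 of GFP+ Pdgfrα+ cells, at 1.96 (limma adjusted p = 0.164). It was also lost with a pseudocount of 0.1, without the mean-variance trend, and in a fit of the compared populations alone (limma adjusted p from 0.00733 to 0.181 over the alternatives). Between GFP- Pdgfrα+ and GFP- Pdgfrα- cells *Pltp* missed the threshold (1.34, limma adjusted p = 0.0504) and was called without replicate 2 of GFP- Pdgfrα+ cells, at 2.22 (limma adjusted p = 0.00487; 0.00487 to 0.498 over the alternatives). Without replicate 1 of GFP- Pdgfrα+ cells it was 0.46 (limma adjusted p = 0.498). With all libraries it was called with edgeR (2.21), a pseudocount of 0.1 (1.70), a filter on low values and the replicate block. Exons of *Pltp* overlap those of *Ctsa* on the opposite strand.

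The adipokine gene *Adipoq* (ENSMUSG00000022878; chromosome 16, 23146609 to 23158101, plus strand) encodes adiponectin, which in other tissues comes from mature fat cells and in adult marrow also from stromal cells. Values were 2.62 and 3.88 in GFP+ Pdgfrα+, 1.39 and 2.82 in GFP- Pdgfrα+, 8.86 and 3.73 in GFP+ Pdgfrα- and 7.90 and 2.71 in GFP- Pdgfrα- cells. Populations overlapped in every comparison, and replicate 1 was above replicate 2 in both Pdgfrα- populations and below it in both Pdgfrα+ populations. None of the comparisons passed the test (limma adjusted p from 0.146 to 0.719). The log2 fold change by Pdgfrα in GFP- cells, -0.93, was called with library medians centred (-1.38, limma adjusted p = 0.0376), with quantile normalization (-1.51, limma adjusted p = 0.0264) and without replicate 2 of GFP- Pdgfrα- cells (-1.56, limma adjusted p = 0.0418), with a range of 0.0264 to 0.701 over the alternatives. Without replicate 1 of GFP- Pdgfrα- cells it was -0.30 and not called.

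*Cfd* (ENSMUSG00000061780; chromosome 10, 79353598 to 79355401, plus strand) encodes complement factor D, or adipsin, a protease secreted by fat cells and also made by monocytes. Values were 0.967 and 1.29 in GFP+ Pdgfrα+, 0.882 and 0.743 in GFP- Pdgfrα+, 6.92 and 3.47 in GFP+ Pdgfrα- and 4.45 and 2.24 in GFP- Pdgfrα- cells. The Pdgfrα- libraries were all above the Pdgfrα+ libraries. GFP- Pdgfrα+ cells were at the floor, with 3 and 2 reads, and GFP+ Pdgfrα+ cells close to it, with 3 and 4. Summed over both libraries, GFP+ Pdgfrα+ cells had 7 reads, against 41 in GFP+ Pdgfrα- cells. By reads, GFP- Pdgfrα+ cells had 0.219 times the level of GFP- Pdgfrα- cells (95% exact binomial interval 0.0654 to 0.587). Its log2 fold change by Pdgfrα was -1.49 in GFP+ (standard error 0.43, limma adjusted p = 0.0261) and -1.21 in GFP- cells (limma adjusted p = 0.0288).

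Both *Cfd* calls depended on single libraries. In GFP+ cells it was -1.07 on the log2 scale without replicate 1 of GFP+ Pdgfrα- cells (limma adjusted p = 0.196), -1.38 without replicate 1 of GFP+ Pdgfrα+ cells (limma adjusted p = 0.0983) and -1.60 without replicate 2 (limma adjusted p = 0.0655). In GFP- cells it was -0.84 without replicate 1 of GFP- Pdgfrα- cells (limma adjusted p = 0.210), -1.27 without replicate 1 of GFP- Pdgfrα+ cells (limma adjusted p = 0.0786) and -1.16 without replicate 2 (limma adjusted p = 0.106). With voom it was -1.92 and was not called (adjusted p = 0.0599). Over all alternatives the adjusted p ranged from 0.0235 to 0.196 in GFP+ and from 0.00311 to 0.210 in GFP- cells. The sums of the myeloid list in GFP+ Pdgfrα- cells, where *Cfd* was highest, were 35.3 and 40.0, and the part of myeloid transcripts in the difference was not tested.

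**Figure D3:**
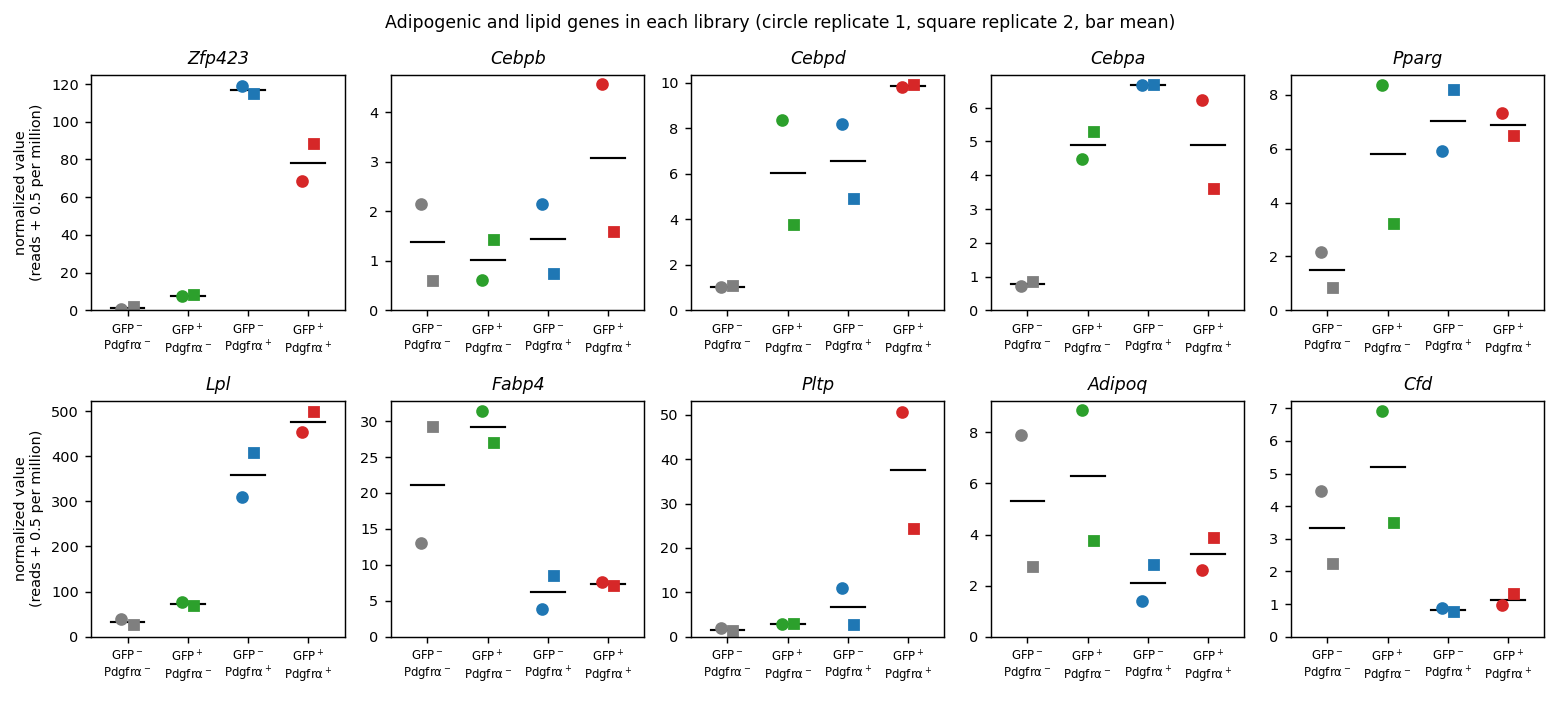
Normalized value (linear axis from 0, reads + 0.5 per 1000000 of the effective library size) of the 10 genes in each library, with circles for replicate 1, squares for replicate 2 and a bar for the mean of each population (n = 2). *Zfp423* and *Lpl* are high in both Pdgfrα+ populations, *Fabp4* and *Cfd* in both Pdgfrα- populations, and *Pltp* in GFP+ Pdgfrα+ cells at 50.7 and 24.3.

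Per kilobase of exon, the order of the 10 genes differed between populations. In GFP+ Pdgfrα+ cells *Lpl* led at 69.9 ± 4.76 (SD, n = 2), followed by *Pltp* at 14.6 ± 7.28, *Zfp423* at 14.0 ± 2.49 and *Fabp4* at 11.5 ± 0.61, and the last 3 lay within their spread of each other. In GFP+ Pdgfrα- cells *Fabp4* led at 45.8 ± 5.06 (SD, n = 2), above *Lpl* at 10.7 ± 0.89, and in GFP- Pdgfrα- cells it led at 33.1 ± 17.8, above *Lpl* at 4.79 ± 1.55. The levels of *Pparg* and *Cebpa* per kilobase were low throughout, at most 3.55 ± 0.80 and 2.54 ± 0.000299 (SD, n = 2), both in GFP- Pdgfrα+ cells.

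The test of whether the GFP difference is the same with and without Pdgfrα called 2 of the 10 genes, *Cebpa* and *Zfp423*, against 44.3% of all genes. The GFP difference of *Cebpa* was smaller in Pdgfrα+ than in Pdgfrα- cells by a log2 value of -2.15 (standard error 0.55, limma adjusted p = 0.00727), and that of *Zfp423* by -2.67 (limma adjusted p = 0.000109). Both held in all 16 alternatives. With library medians centred, 1 member was called higher and 2 lower, and over all genes 4427 were higher and 2989 lower, against 3032 and 3999 with the values as deposited. With quantile normalization 1 member was higher and 3 were lower, and over all genes 3307 were higher and 3306 lower. *Lpl* missed the threshold, at -0.75 (limma adjusted p = 0.0529; 0.00302 to 0.409 over the alternatives). It was called with voom (-0.79), edgeR (-0.76), quantile normalization (-0.75) and a filter on low values, and also without replicate 1 of GFP- Pdgfrα- cells, at -1.08, and without replicate 1 of GFP- Pdgfrα+ cells, at -0.95. With other libraries left out it was as small as -0.42, without replicate 2 of GFP- Pdgfrα- cells. *Pltp* moved the other way, at 1.88 (limma adjusted p = 0.0659), and was called with the replicate block (limma adjusted p = 0.0326; 0.0101 to 0.268 over the alternatives), which made 3 genes. Centring (2.31) and quantile normalization (2.69) gave the call too, and so did the fits without replicate 1 of GFP- Pdgfrα+ cells, at 2.76, and without replicate 2 of GFP+ Pdgfrα+ cells, at 2.40, while without replicate 2 of GFP- Pdgfrα+ cells it was 1.00 and not called. *Pparg* was called without replicate 2 of GFP+ Pdgfrα- cells alone (-1.98, limma adjusted p = 0.0407; 0.0407 to 0.403 over the alternatives), against -1.41 with all libraries and -0.83 without replicate 1 of GFP+ Pdgfrα- cells.

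Other genes of the pathway were taken from 6 lists that do not contain the 10 genes. Of 20 adipogenic factors, 1 was called higher and 19 were not called between the Pdgfrα+ populations, where 3.22% of all genes were higher and 2.13% lower. At an unadjusted p of at most 0.05 limma counted 7 of them there, and edgeR and voom each called 2. By Pdgfrα, 4 were higher and 5 lower in GFP+ cells, and 10 higher and 4 lower in GFP- cells. In Pdgfrα- cells, 11 were higher and 6 lower with GFP. Shares over all genes were 13.1% and 11.1%, 32.9% and 26.8%, and 30.1% and 23.6% in these latter comparisons, and the list is near them for several counts. The list medians of the log2 fold change in these 4 comparisons were -0.20, 0.09, 0.74 and 1.37, against 0.00467, -0.02, 0.17 and 0.15 for all genes. The count of 9 by Pdgfrα in GFP+ cells fell to 5 without either library of GFP+ Pdgfrα- cells and without replicate 2 of GFP+ Pdgfrα+ cells.

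Early B cell factors promote fat cell differentiation. *Ebf2*, which marks committed fat precursors, had values of 152 and 234 in GFP+ Pdgfrα+, 229 and 228 in GFP- Pdgfrα+, 19.1 and 17.6 in GFP+ Pdgfrα- and 7.61 and 3.18 in GFP- Pdgfrα- cells. By Pdgfrα it rose by 3.29 on the log2 scale in GFP+ cells (limma adjusted p = 1.03e-05) and by 5.26 in GFP- cells. *Ebf1* rose by 1.53 and 5.03 and *Klf4* by 1.24 and 4.01 in the same comparisons. Between the Pdgfrα+ populations *Ebf1* missed the threshold, at -0.73 (limma adjusted p = 0.0551), and was called in 7 of 14 alternatives. *Ebf3* rose by 4.67 in GFP- cells, while its log2 fold change of 0.49 in GFP+ cells did not pass (limma adjusted p = 0.0899). *Klf5* was the factor called between the Pdgfrα+ populations, where its mean was 2.32-fold higher in GFP+ cells (limma adjusted p = 0.0234). That call was lost when any 1 of the 4 Pdgfrα+ libraries was left out, at log2 fold changes from 1.00 without replicate 2 of GFP- Pdgfrα+ cells to 1.33 without replicate 1 (limma adjusted p from 0.0116 to 0.181 over the alternatives). *Rxrg*, a partner of PPARγ, had 37 and 34 reads in GFP+ Pdgfrα- cells and at most 5 in any other library. The skeletal muscle, pericyte and smooth muscle, and Schwann sums were also highest in these libraries. The part of such transcripts in *Rxrg* was not tested. *Med1*, a subunit of the Mediator complex, had values of 251 and 245 in GFP- Pdgfrα- cells and 109 to 165 elsewhere.

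Of 13 adipogenesis inhibitors found of 14 listed, 1 was higher and 2 lower with GFP in Pdgfrα+ cells, and 3 were higher with Pdgfrα in GFP+ cells. All genes gave 3.22% higher and 2.13% lower with GFP, and 13.1% and 11.1% with Pdgfrα. In GFP- cells, 9 were higher and 3 lower with Pdgfrα, and in Pdgfrα- cells 7 were higher and 4 lower with GFP. Of all genes, 32.9% were higher and 26.8% lower in the former of these comparisons and 30.1% and 23.6% in the latter, so the lower counts of the list lie near the background. *Dlk1*, also known as Pref-1, which holds preadipocytes undifferentiated, had values of 941 and 1014 in GFP+ Pdgfrα+, 1567 and 1619 in GFP- Pdgfrα+, 843 and 933 in GFP+ Pdgfrα- and 9.62 and 30.8 in GFP- Pdgfrα- cells. It was low in the GFP- Pdgfrα- libraries alone. *Zfp521*, which antagonizes *Zfp423*, was lower in GFP+ than in GFP- Pdgfrα+ cells by a log2 fold change of -0.98 (limma adjusted p = 0.00329). *Nr2f2* was higher by 1.75 in the same comparison (limma adjusted p = 0.00274), and held in all 14 alternatives. *Klf3* was lower, at -0.59 (limma adjusted p = 0.0275), and lost the call when any 1 of the 4 Pdgfrα+ libraries was left out, at -0.55 to -0.62. The call of *Zfp521* was lost without replicate 2 of GFP- Pdgfrα+ cells, at -0.96 (limma adjusted p = 0.0578; 0.000281 to 0.0578 over the alternatives). *Twist1* rose by 2.92 with Pdgfrα in GFP+ cells (limma adjusted p = 0.000167). *Tcf7l2*, an effector of Wnt signals, rose by 3.45 with Pdgfrα in GFP- cells.

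Of 16 genes of the mature fat cell found of 20 listed, 6 were lower with Pdgfrα in GFP+ cells, 10 were not called and none was higher (10 were counted at an unadjusted p of at most 0.05, and edgeR called 4 and voom 5). In GFP- cells 7 were lower and 3 higher, a total that fell from 10 to 7 without replicate 2 of GFP- Pdgfrα- cells and to 5 without replicate 2 of GFP- Pdgfrα+ cells. Over all genes 11.1% were lower and 13.1% higher in the former comparison, and 26.8% and 32.9% in the latter. The list median log2 fold change was -1.14 and -0.84 in these comparisons, against -0.02 and 0.17 for all genes. With GFP in Pdgfrα- cells, 5 were higher and 1 lower, against 30.1% and 23.6% of all genes. The list median there was 0.39, against 0.15 for all genes. The summed values were 116 and 102 in GFP+ Pdgfrα+, 133 and 110 in GFP- Pdgfrα+, 238 and 210 in GFP+ Pdgfrα- and 223 and 280 in GFP- Pdgfrα- cells. In this sum every Pdgfrα- library exceeded every Pdgfrα+ library. The count of 6 fell to 1 without replicate 1 of GFP+ Pdgfrα- cells and to 1 without replicate 2 of GFP+ Pdgfrα+ cells. Muscle sums in the GFP+ Pdgfrα- libraries were 1876 and 1726, against 130 and 110 in GFP+ Pdgfrα+ cells, and pericyte and smooth muscle sums were 2449 and 3162, against 599 and 519. The part of these transcripts, and of erythroid and myeloid ones in GFP- Pdgfrα- cells, in the list's differences was not tested.

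With the highest mean of that list over the 8 libraries, *Cd36* encodes a fatty acid receptor also found on red cell precursors, macrophages and endothelium. Its values were 10.1 and 18.8 in GFP+ Pdgfrα+, 14.0 and 15.0 in GFP- Pdgfrα+, 44.6 and 62.9 in GFP+ Pdgfrα- and 65.3 and 111 in GFP- Pdgfrα- cells. By Pdgfrα, *Cd36* had a log2 fold change of -1.86 in GFP+ (limma adjusted p = 0.00109) and -2.48 in GFP- cells. *Slc2a4*, the insulin-regulated glucose transporter of fat and muscle, fell by 1.49 in GFP+ and by 1.63 in GFP- cells. Its call in GFP+ cells was lost without replicate 1 of GFP+ Pdgfrα- cells, at -1.26, and without replicate 2 of GFP+ Pdgfrα+ cells, at -1.30. *Lipe*, which encodes hormone-sensitive lipase, fell by 1.42 in GFP+ cells (limma adjusted p = 0.0116), and its call was lost without the same libraries, at -1.11 and -1.42. *Cidec*, a lipid droplet protein gene, had 0 reads in both GFP- Pdgfrα+ libraries and 4 and 18 in GFP+ Pdgfrα+ libraries, and *Plin5* was at or under the floor in 3 of the 4 populations. The lipid droplet coat gene *Plin2* was not called in any comparison, with values of 13.7 to 25.6 over the 8 libraries. Between the Pdgfrα+ populations none of the 16 genes was called by limma, 1 was counted at an unadjusted p of at most 0.05, and edgeR and voom each called 1. With 3.22% of all genes higher and 2.13% lower there, this count is near the background.

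Of 15 genes of fatty acid and triglyceride synthesis found of 16, none was called between the Pdgfrα+ populations by limma, edgeR or voom, and 0 were counted at an unadjusted p of at most 0.05, which for 15 genes is near the shares of all genes called there (3.22% higher, 2.13% lower). With Pdgfrα, 3 were higher and 2 lower in GFP+ cells and 7 higher and 5 lower in GFP- cells. In Pdgfrα- cells 5 were higher and 6 lower with GFP. Among all genes these shares were 13.1% and 11.1%, 32.9% and 26.8%, and 30.1% and 23.6%, and most counts of the list are near them. *Fasn*, the fatty acid synthase gene, was called in none of the comparisons, at 123 to 168 over the 8 libraries. The desaturase gene *Scd1* had values of 118 and 115 in GFP+ Pdgfrα+ and 122 and 119 in GFP- Pdgfrα+ cells. The Pdgfrα- libraries ranged from 17.4 to 33.6, without overlap. It rose with Pdgfrα by 2.51 in GFP+ (limma adjusted p = 1.40e-06) and by 1.90 in GFP- cells (limma adjusted p = 1.30e-06), and *Elovl5*, an elongase gene, by 1.82 and 2.12. *Acsl1*, an acyl-CoA synthetase gene, moved in the other direction, at -1.55 and -2.84.

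Of 16 genes of lipoprotein handling, 5 were higher and 2 lower with Pdgfrα in GFP+ cells, and 9 higher and 3 lower in GFP- cells. With GFP, 1 was higher in Pdgfrα+ cells, and 9 were higher and 2 lower in Pdgfrα- cells. The shares over all genes were 3.22% and 2.13% by GFP in Pdgfrα+ cells, 13.1% and 11.1% by Pdgfrα in GFP+ cells, 32.9% and 26.8% in GFP- cells, and 30.1% and 23.6% by GFP in Pdgfrα- cells, so the counts of lower genes are at or under the background, or close to it. *Lrp1*, which encodes a lipoprotein uptake receptor, had values of 1330 and 1248 in GFP+ Pdgfrα+, 1595 and 1730 in GFP- Pdgfrα+, 331 and 422 in GFP+ Pdgfrα- and 32.0 and 40.2 in GFP- Pdgfrα- cells. Like *Lpl*, it differed without overlap between Pdgfrα states, by 1.78 in GFP+ (limma adjusted p = 5.38e-06) and 5.49 in GFP- cells. *Apod* rose by 2.66 and 5.74, and *Vldlr* by 1.57 and 4.11. *Vldlr*, the receptor for very low density lipoprotein, was also the gene called between the Pdgfrα+ populations, higher in GFP+ cells by 1.25 (limma adjusted p = 0.0144). That call was lost without either library of GFP- Pdgfrα+ cells, at 1.25, and without replicate 1 of GFP+ Pdgfrα+ cells, at 1.02 (limma adjusted p from 0.000631 to 0.138 over the alternatives). *Cav1* was lower with Pdgfrα in GFP+ cells, at -1.51 (limma adjusted p = 0.00201), and higher with it in GFP- cells, at 2.35 (limma adjusted p = 1.44e-05).

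Of 11 surface markers of fat progenitors, 8 were higher and none lower with Pdgfrα in GFP+ cells, the same number as at an unadjusted p of at most 0.05 and in edgeR and voom. In GFP- cells 9 were higher and 1, *Cd24a*, was lower. All genes gave 13.1% higher and 11.1% lower in GFP+ cells and 32.9% and 26.8% in GFP- cells. *Cd24a* is also abundant on red cell precursors and had values of 3135 and 3073 in GFP- Pdgfrα- cells, against 27.9 to 92.7 elsewhere. *Pi16* and *Ly6a* were higher with Pdgfrα in GFP+ cells by 3.61 (limma adjusted p = 4.06e-05) and 4.26 (limma adjusted p = 4.39e-06). Between the Pdgfrα+ populations *Ly6a* and *Icam1* were lower in GFP+ cells, at -1.89 (limma adjusted p = 0.00714) and -1.97 (limma adjusted p = 0.0178), and *Cd24a* was higher, against 2.13% of all genes lower and 3.22% higher. At an unadjusted p of at most 0.05, 6 of the list were counted by limma in that comparison, and edgeR and voom each called 5. The calls of *Icam1* and *Cd24a* were lost when any 1 of the 4 Pdgfrα+ libraries was left out, that of *Icam1* at -1.83 to -2.10. The call of *Ly6a* was lost without replicate 1 of GFP- Pdgfrα+ cells, at -1.63, without replicate 2, at -2.16, and without replicate 2 of GFP+ Pdgfrα+ cells, at -1.66. *Lepr*, a marker of adult marrow stroma that forms fat, had values of 201 and 158 in GFP+ Pdgfrα+ and 101 and 102 in GFP- Pdgfrα+ cells. In the Pdgfrα- libraries it ranged from 5.89 to 13.7. *Pdgfrb* was not called with Pdgfrα in GFP+ cells (0.31, limma adjusted p = 0.286).

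Genes outside the set with the most similar pattern over the 8 libraries were sought among 9014 genes with a mean value of at least 10. The Pearson r of log2(value + 1) is given as a description of these 8 libraries, which fall into 4 populations and are not independent points. For *Lpl* the closest were *Lox* (0.997), *Lass6* (0.9915) and *Gpr133* (0.9913). *Cebpa* was matched by *Dcaf5* (0.993), *Nptxr* (0.991) and *Fam113a* (0.990), and *Pparg* by *Fam13a* (0.974), *Snx21* (0.9675) and *Dnajc25* (0.967). For *Adipoq* they were *Zfand1* (0.941), *Ankle2* (0.913) and *Hyls1* (0.909).

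*Pparg*, *Cebpa*, *Cebpd* and *Zfp423* were all lowest in GFP- Pdgfrα- cells. Their promoters were read for letters bound by factors of the cascade and by early B cell factors (EBF). RefSeq windows of 300 bases (250 before to 50 after a start, build GRCm38.p6) matched 7 of the 10 genes with 10 windows, and *Cebpd*, *Lpl* and *Fabp4* were not matched. Both strands were searched for TTGCNNAA (C/EBP) and for AGGTCA (PPARγ and other nuclear receptors), and no window held both. TTGCNNAA occurred in 3 of the 10 windows and in 10.8% of 32851 windows of all genes, and AGGTCA in 3 of the 10 and in 16.3%. A window of *Pparg* (chr6:115421816-115422115, plus strand) and one of *Zfp423* (chr8:87959546-87959845, minus strand) each held 2 matches to TTGCNNAA, the most of any member. They are shown 5′ to 3′ with these matches in capitals, because C/EBP factors induce *Pparg* in the cascade and *Zfp423* had the largest difference of the 10 genes. The values per gene do not separate transcripts from different starts, and a match of letters is not a site.
*Pparg* window: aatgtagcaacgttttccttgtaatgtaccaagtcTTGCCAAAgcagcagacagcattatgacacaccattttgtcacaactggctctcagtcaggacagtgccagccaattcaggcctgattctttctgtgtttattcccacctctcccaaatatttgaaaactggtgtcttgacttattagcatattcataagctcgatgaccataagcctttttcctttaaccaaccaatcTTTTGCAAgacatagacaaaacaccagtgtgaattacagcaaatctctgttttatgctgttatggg
*Zfp423* window: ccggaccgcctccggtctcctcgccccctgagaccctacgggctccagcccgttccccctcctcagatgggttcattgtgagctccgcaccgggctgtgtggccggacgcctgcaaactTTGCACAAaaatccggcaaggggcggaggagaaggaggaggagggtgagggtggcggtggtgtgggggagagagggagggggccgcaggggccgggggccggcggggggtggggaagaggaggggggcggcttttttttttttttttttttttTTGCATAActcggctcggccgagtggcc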

How the data were processed

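The authors removed adaptors with cutadapt, quantified reads with RSEM 1.17 on the transcriptome of NCBIM37, and normalized with limma. On a linear scale, the deposited signal is normalized per library. Reads recovered from it had a median of 3604130.5 per library. Of the 15880 identifiers, 15849 matched GENCODE M1.

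Values were fitted as log2(value + 1) with limma 3.58.1 in R 4.3.3 (eBayes with trend, 1 coefficient per population, 4 residual degrees of freedom). On recovered reads, edgeR 4.0.16 and voom were run, and the replicate block, scaling, filter, pseudocount and left-out libraries were the other alternatives; the scripts were tested on simulated data. Figures used Python 3.11.15 and matplotlib 3.10.9. The design text ties each replicate number to a pool of littermates; deviations of same-numbered libraries correlated at 0.00433 to 0.0812. Between replicates, chi-square divided by its degrees of freedom was 4.12 to 9.12, where counting alone gives about 1. The members and lists were chosen with earlier results of these data known. Named are the members and a selection from each pathway list, which includes some of its most abundant and most changed genes. *Scd2*, *Lpin2*, *Pnpla2*, *Mgll*, *Abca1*, *Itgb1* and *Cd34* were also among the most abundant of their lists, and their values are not given. For each marker list the most abundant gene and some of its defining genes at the floor are named. Single-cell origins and other experiments of the study were not analysed here.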

Additional observations from a re-analysis of the deposited data

Results flagged for a closer look

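The GFP difference of *Cebpa* was not the same in Pdgfrα+ and Pdgfrα- cells by the interaction term of the limma fit, with a log2 value of -2.15. Its GFP- Pdgfrα- libraries had 2 and 3 reads. *Zfp423* differed in the same way, at -2.67, with 2 and 6 reads in the GFP- Pdgfrα- libraries. The erythroid sums of these libraries were 13873 and 21935, and their part in both results was not tested. Populations of 2 libraries are too small for a test of single outlying libraries.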

How the results depend on the processing

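The limits are few libraries and low reads. Each left-out library leaves a population with a lone library, which is assumed to vary like the others. Of the 20 member results called (4 comparisons and the interaction), 12 were called in every alternative run and 0 of 272 alternative values changed direction. Of all 700 alternative member values, 623 kept direction and side of the threshold, 25 lost the call, 21 gained it and 31 changed direction, none of the last being called. The count of members called between the Pdgfrα+ populations (1) was 2 with voom and 0 with a pseudocount of 0.1, with the compared populations alone and without the trend, and 0 to 1 with a library left out. By Pdgfrα in GFP+ cells (5) it was 3 to 5 with a library left out. By GFP in Pdgfrα- cells (5) it was 4 with centring and with the compared populations alone, 3 with quantile normalization and 3 to 5 with a library left out. By Pdgfrα in GFP- cells (7) it was 8 with edgeR, a pseudocount of 0.1, the filter and centring, 6 with voom, and 5 to 6 with a library left out. For the interaction (2) it was 3 with voom, edgeR, the filter and centring, 4 with quantile normalization and 2 to 4 with a library left out. The replicate block gave 1, 5, 5, 8 and 3 in this order and changed no call of a member but *Pltp*. Leaving out the GFP- Pdgfrα- libraries, chosen after seeing the data, gave 1 and 5 in the first 2 comparisons. All genes called between the Pdgfrα+ populations (849) were 532 without the trend and 246 to 517 with a library left out, and by Pdgfrα in GFP+ cells (3848) 2158 to 3047. Of 324 alternative list counts, 44 moved over 1.5 times, 35 of them between the Pdgfrα+ populations. The cause of these changes was not tested.

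Values that changed sign were the following log2 fold changes. Between the Pdgfrα+ populations, *Pparg* was 0.0028 with voom and -0.22 to 0.19 with a library left out, and *Fabp4* -0.19 to 0.76. By Pdgfrα in GFP+ cells, *Cebpa* was 0.0051 with edgeR and -0.35 to 0.30 with a library left out, and *Pparg* -0.25 to 0.90. By GFP in Pdgfrα- cells, *Adipoq* was -0.205 with library medians centred, -0.35 with quantile normalization and -0.38 to 0.88 with a library left out. There quantile normalization gave -0.17 for *Cfd* and -0.12 for *Pltp*, and leaving out a library -0.68 to 0.31 for *Cebpb* and -0.0022 to 1.0962 for *Fabp4*. By Pdgfrα in GFP- cells, *Cebpb* was -0.39 with centring, -0.62 with quantile normalization and -0.43 to 0.56 with a library left out. In the interaction, centring gave 0.17 for *Fabp4* and 0.15 for *Cfd*, quantile normalization 0.37 for *Cfd*, and leaving out a library -0.40 to 0.86 for *Adipoq*, -0.81 to 0.29 for *Fabp4* and -0.68 to 0.14 for *Cfd*.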

Other observations

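Between replicates, 6 of the 10 genes were higher in replicate 1 in each Pdgfrα- population and 5 of 10 in each Pdgfrα+ population. Over all genes the share was 52.7% in GFP- Pdgfrα-, 45.7% in GFP+ Pdgfrα-, 51.2% in GFP- Pdgfrα+ and 49.6% in GFP+ Pdgfrα+ cells.

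With 2 pools per population and few reads for several of the 10 genes, a p that misses the threshold does not show that values did not differ. The GFP- Pdgfrα- libraries differ from the rest in composition, with 27.2% and 29.1% of reads on *mt-Rnr2*. This share was 17.6% and 15.6% in GFP+ Pdgfrα- and 9.52% and 10.3% in GFP+ Pdgfrα+ libraries. It was 10.8% in both GFP- Pdgfrα+ libraries. The identity of the cells that carry a transcript is not given by a bulk value. Protein, lipid content and fat cell formation were not analysed here.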
